A study of Mus musculus with 60 samples.

Results

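Fetal brains of Pon1 knockout (KO) mice whose dams received chlorpyrifos oxon (CPO) at a daily dose of 0.75 mg per kg (0.75 mg/kg/d) were compared with those of KO dams that received none (dose 0). The comparison used 10 of the 60 arrays of the series, 5 for each dose. These 10 arrays were not taken by their deposited labels. The labels look displaced against the value columns, and an order inferred from the sample numbering was used to give each column another label. The order is an inference, and no source used here states it. No difference between doses entered the choice of the order. The measured values behind that choice are those of Pon1, since the order was selected on their being low in every array it calls KO. The comparison itself was chosen with earlier results of these data known. Every group below is a reassigned group, and every direction between groups rests on that inference.

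The series exposed pregnant mice of the B6.129 background on gestational days 6 to 17 and collected the brains of their fetuses on gestational day 18. Each Affymetrix Mouse Gene 1.0 ST array held the pooled brain RNA of the fetuses of 1 dam, so a value stands for a litter and the dam is the replicate. The 12 groups of 5 arrays hold wild type (WT), KO and mice with the human transgene tgHuPON1Q192 (Q-tg) or tgHuPON1R192 (R-tg). Besides controls, KO received 0.50 or 0.75 mg/kg/d, and the other genotypes received 0.75 or 0.85. The labels give 1 genotype for dam and fetus together, and neither the form of the knockout allele nor the promoter of the transgenes. Dams with outlying brain acetylcholinesterase activity for their treatment group had been left out before dams were drawn at random.

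CPO is the active form of the insecticide chlorpyrifos, and it blocks acetylcholinesterase, the enzyme that ends signalling by the transmitter acetylcholine. Paraoxonase 1, encoded by Pon1, is a blood enzyme made chiefly in the liver that hydrolyses CPO before it reaches the tissues. Animals without it are known to be more sensitive to CPO, and the design asks whether that holds for gene expression in the fetal brain.

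Pon1 itself was the check of the inferred order, and its values are a description with no test. Its log2 signal was below the level of 7 set by the rule in all 15 reassigned KO arrays, from 4.84 to 5.67. In the other 45 arrays it lay between 9.72 and 10.14. In the KO arrays at dose 0 it was 4.84, 5.36, 5.39, 5.45 and 5.50 in replicates 1 to 5, and at 0.75 mg/kg/d it was 5.39, 5.67, 5.15, 5.47 and 5.64. The groups overlapped, and all 10 values lay below 6.54, the level under which a signal was called dim here. Of the 10 arrays, 5 are labelled KO in the deposit, 5 carry the label of another genotype, and 2 carry the label of their reassigned group.

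**Figure D1:**
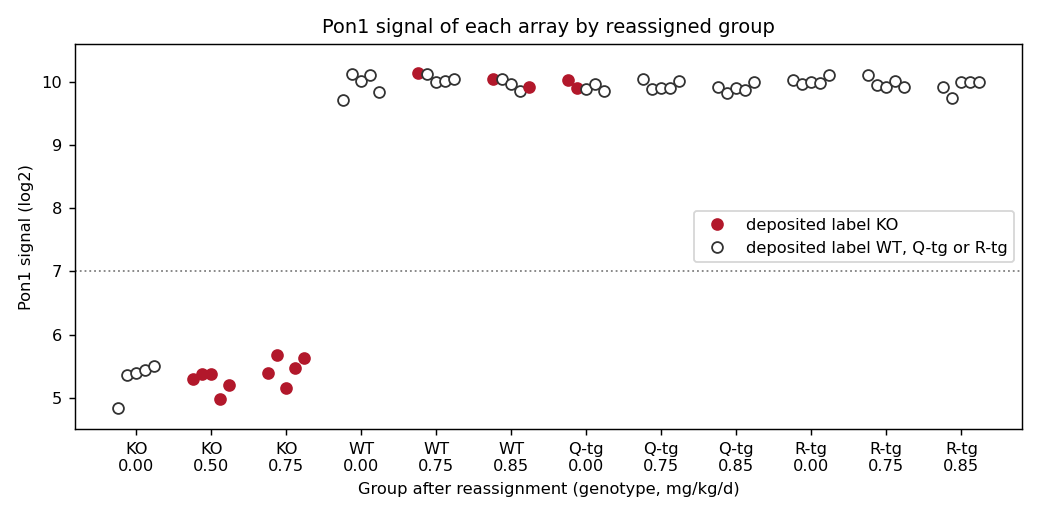
The log2 signal of Pon1 on each of the 60 arrays (vertical axis) is plotted by reassigned genotype and CPO dose in mg/kg/d (horizontal axis), with filled points for arrays deposited as KO, open points for the others and a dotted line at 7. The 15 reassigned KO arrays sit between 4.84 and 5.67 and the other 45 between 9.72 and 10.14.

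The numbering gave a second description of the order that uses no expression value. In the order of the records, 5 consecutive samples carry labels whose places in the list of groups and replicates are 11, 22, 33, 44 and 55. Those are the columns that numbers 1 to 5 take when the numbers are sorted as text, and the rule gives these columns the label KO at dose 0. The labels now at those columns in the deposit are Q-tg at 0 (replicate 3), WT at 0 (replicate 2), Q-tg at 0.85 (replicate 1), R-tg at 0.75 (replicate 3) and WT at 0.85 (replicate 5). The KO arrays at 0.75 are deposited as KO at 0.50 (replicates 3, 4 and 5) and KO at 0.75 (replicates 2 and 3). Low Pon1 bears on the genotype alone, and no gene measured here checks the dose within KO.

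The 10 arrays were alike in their signal distributions. Correlations between any pair of them ran from 0.992 to 0.9983, and no pair was identical. Array medians were 7.417 ± 0.008 (SD) at 0.75 and 7.42 ± 0.021 at dose 0 on the log2 scale, and lower quartiles were 6.066 ± 0.062 and 6.091 ± 0.063. Replicate 2 at 0.75 stood apart, with the lowest lower quartile (5.961) and a median correlation of 0.9948 with its own group, against 0.9961 to 0.9978 for the other 9. Several values below are given without it as well.

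Sex-linked genes read apart between the doses, without passing the test. The mean log2 signal of 3 Y-linked genes was 8.642 ± 0.241 at 0.75 and 8.113 ± 0.63 at dose 0, and Xist, the RNA that silences an X chromosome in females, was 11.09 ± 0.282 and 11.47 ± 0.311. Exact permutation tests (2-sided) over 4 array measures gave p = 0.0556 for the Y-linked mean and 0.0794 for Xist, both 0.159 after Benjamini-Hochberg adjustment, where the smallest p the design allows is 0.00794. Eif2s3y, a Y-linked translation factor, was 8.86, 8.64, 8.91, 8.91 and 7.15 at dose 0 and 9.44, 9.34, 9.40, 9.16 and 8.93 at 0.75. The groups did not overlap, and replicate 5 at dose 0 was the lowest. With the Y-linked mean as covariate, limma called 0 transcript clusters, as it did without it, and 473 were at an unadjusted p under 0.05.

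No gene differed between KO brains at 0.75 and at 0 mg/kg/d at the threshold used. limma, fitted with 12 groups to all 60 arrays, called 0 of 21789 transcript clusters (0%) at an adjusted p under 0.05, and the smallest adjusted p was 1. A transcript cluster is a row of the array, usually 1 per gene. At an unadjusted p under 0.05 there were 555 (2.55%), with 271 (1.24%) higher and 284 (1.30%) lower at 0.75. If no gene differed, 1089 (5%) would be so on average. The groups did not overlap for 91 (0.418%), 28 of them higher (0.129%) and 63 lower (0.289%).

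The differences were small as well as uncalled. The median size of a log2 difference was 0.038, the 95th percentile 0.13 and the largest 0.761, which was that of Eif2s3y. A median transcript cluster had a standard error (SE) of 0.064, so its 95% interval reached 0.129 to either side. That interval lay wholly within ±0.5 log2 units for 21690 transcript clusters (99.5%). A difference beyond 0.5 was seen for 2, Eif2s3y and a dim transcript cluster of Trdn, a muscle gene whose brighter transcript cluster had a difference of -0.15 (SE 0.13), or -0.01 without replicate 2 at 0.75. Without replicate 5 at dose 0 the difference of Eif2s3y was 0.43. These 2 were chosen after their values were seen. Of all 21789, 10071 were higher and 11718 lower at 0.75, around a median of -0.005.

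The cholinesterases, their anchors and the paraoxonases Pon2 and Pon3 had close levels at both doses. Ache, which encodes acetylcholinesterase, was 8.83, 8.83, 8.85, 8.87 and 8.63 at dose 0 and 8.94, 8.98, 8.75, 8.88 and 8.87 at 0.75. The groups overlapped, and only replicate 5 at dose 0 lay below 8.75. The log2 difference was 0.08 (SE 0.06, 95% interval -0.04 to 0.21).

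Butyrylcholinesterase, the related enzyme of blood and glia that also binds CPO, is encoded by Bche. Its log2 signal was 6.62, 6.73, 6.54, 6.69 and 6.66 at dose 0 and 6.79, 6.89, 6.63, 6.51 and 6.67 at 0.75, with overlap and a difference of 0.05 (SE 0.08, interval -0.10 to 0.20). The collagen-like tail Colq and the membrane anchor Prima1, which hold acetylcholinesterase in place, differed by 0.00 (SE 0.09) and 0.01 (SE 0.09). Pon2 and Pon3 encode the other paraoxonases. Pon2 ran from 7.66 to 7.78 at dose 0 and from 7.62 to 7.73 at 0.75 (difference -0.03, SE 0.07, interval -0.16 to 0.10). Pon3 ran from 6.68 to 6.88 and from 6.50 to 6.94 (difference -0.06, SE 0.07, interval -0.19 to 0.08).

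Receptors and neurons of the acetylcholine system gave no member at an unadjusted p under 0.05. Of 11 nicotinic receptor subunits, which form ion channels opened by acetylcholine, 8 were higher at 0.75, with a median difference of 0.031, and 5 of the 11 were dim. Over all 19938 genes, each by its brightest transcript cluster, 45.4% were higher and the median was -0.006. The members of largest difference were Chrna6 at 0.13 (SE 0.08, and 0.04 without replicate 2 at 0.75), Chrnb4 at -0.07 (SE 0.08), Chrna9 at 0.06 (SE 0.10) and Chrna5 at 0.05 (SE 0.07). Of the 5 muscarinic receptors, which signal through G proteins, 3 were higher (median 0.049), with Chrm2 at 0.10 (SE 0.06), or 0.05 without replicate 5 at dose 0. Of 9 markers of cholinergic neurons 6 were lower (median -0.041). That side was not kept: 5 of 9 were higher without replicate 5 at dose 0 (median 0.02) and under array weights, which weight arrays by their fit (median 0.036). Slc18a3, the vesicular acetylcholine transporter, had -0.11 (SE 0.09), Slc10a4, a vesicle protein of these neurons, had -0.11 (SE 0.08), and Slc5a7, which takes up choline, had 0.05 (SE 0.08).

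Organophosphates also bind other serine hydrolases, among them carboxylesterases that soak up CPO in blood and liver. Of 27 such genes 17 were lower at 0.75, with a median of -0.03. Only Ddhd1, a phospholipase that was no member of largest difference and is named after its value was seen, reached an unadjusted p under 0.05, at 0.09 (0.04 without replicate 2 at 0.75), against 1.24% higher over all transcript clusters. The largest differences were those of the carboxylesterases Ces2e at -0.15 (SE 0.11), Ces2a at -0.13 (SE 0.15) and Ces2g at -0.09 (SE 0.11), all dim, and of Mgll, which degrades an endocannabinoid, at 0.13 (SE 0.07). Without replicate 2 at 0.75 they were -0.05 for Ces2e and -0.03 for Ces2a. Without dim transcript clusters the list's median was 0.002.

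Of 27 genes of xenobiotic metabolism 22 were lower (median -0.025), where 10880 of all 19938 genes were. At an unadjusted p under 0.05, 1 was higher and 1 lower, against 1.24% and 1.30% over all transcript clusters. Without single arrays the count higher ran from 5 to 11 and the median from -0.036 to -0.012, and 16 were lower without replicate 4 at dose 0. Ephx1, the microsomal epoxide hydrolase, was the member that was higher. It read 7.51, 7.61, 7.61, 7.63 and 7.43 at dose 0 and 7.70, 7.78, 7.75, 7.70 and 7.73 at 0.75. All 5 treated values lay above all 5 controls, a difference of 0.17 (SE 0.07, interval 0.04 to 0.31). Gsta3, a glutathione transferase that was dim, differed by -0.18 (SE 0.06). Of 9 genes of the aryl hydrocarbon receptor, a sensor that switches on xenobiotic enzymes, 6 were lower (median -0.026, and 0.032 without dim transcript clusters). Cyp1a2, a target of that receptor, was dim at 5.51 at dose 0 and 5.50 at 0.75. It is named after its values were seen, because it had the smallest adjusted p (0.494) when the groups were taken as labelled.

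The genes of smallest p are given as values and not as changes, since none passed limma's test and the choice of extremes inflates their size. Of the 20 genes of smallest p, 7 were higher and 13 lower at 0.75, 9 were dim, and 6 had groups that did not overlap. Nothing is read from these counts against the 0.418% without overlap over all transcript clusters, since the same contrast chose the genes.

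Angptl1, which encodes a secreted angiopoietin-like protein, had the smallest p. It was dim, at 5.66, 5.57, 5.55, 5.53 and 5.57 at dose 0 and 5.80, 6.03, 6.05, 5.70 and 5.68 at 0.75. The lowest treated array (5.68) lay just above the highest control (5.66), and the difference was 0.28 (SE 0.07, interval 0.14 to 0.41). Prkg2, a protein kinase switched on by cyclic GMP, was 6.83, 6.77, 6.69, 6.80 and 6.71 at dose 0 and 6.99, 7.10, 6.88, 6.84 and 6.84 at 0.75. Here too the groups were close, at 6.84 and 6.83, with a difference of 0.17 (SE 0.05, interval 0.08 to 0.27).

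Trim30a and Samd9l, which are both known to be induced by interferon, read higher at 0.75. Trim30a was 6.66, 6.31, 6.27, 6.59 and 6.49 at dose 0 and 6.60, 7.03, 6.75, 6.50 and 6.74 at 0.75, with overlap (difference 0.26, SE 0.08, interval 0.10 to 0.42). Samd9l, which was dim, was 6.11, 6.08, 5.92, 5.96 and 5.84 at dose 0 and 6.17, 6.62, 6.28, 6.12 and 6.37 at 0.75, without overlap (difference 0.33, SE 0.10, interval 0.13 to 0.53). In both genes the highest array was replicate 2 at 0.75, the array that stood apart, and without it the differences were 0.183 and 0.253.

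The other genes with higher readings that were above the dim level were Trpc5, Csgalnact1, Ppp1r12b and Strip2. Trpc5, a calcium-permeable channel of neurons, was 8.99, 8.95, 8.83, 8.92 and 8.76 at dose 0 and 9.08, 9.18, 9.01, 8.93 and 9.10 at 0.75. A single treated array, replicate 4, fell among the controls, and the difference was 0.17 (SE 0.05). Csgalnact1, which starts chondroitin sulphate chains, differed by 0.18 (SE 0.06). Ppp1r12b, a subunit of myosin phosphatase, differed by 0.15 (SE 0.05). Strip2, a striatin-interacting protein, differed by 0.21 (SE 0.07).

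Among genes with lower readings, Cited2 had groups without overlap. It encodes a partner of the CBP and p300 coactivators, and it was 9.91, 9.95, 9.93, 9.89 and 9.92 at dose 0 and 9.81, 9.89, 9.85, 9.73 and 9.78 at 0.75. The closest pair differs only past the second decimal. The difference of -0.11 (SE 0.03, interval -0.17 to -0.04) was the smallest among the 20 genes of smallest p. Atg4a, a protease of autophagy, was 7.45, 7.35, 7.36, 7.48 and 7.43 at dose 0 and 7.34, 7.25, 7.33, 7.25 and 7.17 at 0.75. The highest treated array (7.34) lay just below the lowest control (7.35), and the difference was -0.14 (SE 0.05, interval -0.24 to -0.05).

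Mfap2, a component of elastic microfibrils, ran from 10.14 to 10.26 at dose 0 (median 10.18) and from 9.99 to 10.15 at 0.75. Only replicate 4 at 0.75 reached into the control range (difference -0.15, SE 0.04, interval -0.23 to -0.07). Gas5, a long non-coding RNA that hosts small nucleolar RNAs, differed by -0.16 (SE 0.05), Tnfaip8, an apoptosis regulator, by -0.15 (SE 0.05), and the membrane protein gene Tmem167b by -0.14 (SE 0.04).

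Of the lower dim genes, Rhd, which encodes a Rhesus blood group protein of red cells, was 6.09, 6.18, 6.15, 6.10 and 6.15 at dose 0 and 5.62, 5.55, 5.86, 6.05 and 5.95 at 0.75. Its groups did not overlap, the treated arrays were the more spread, and the difference was -0.33 (SE 0.09, interval -0.51 to -0.14). The lowest array (5.55) was replicate 2 at 0.75, the array that stood apart. Over the alternatives other than the deposited labels the difference ran from -0.388 to -0.254. Of 13 measured erythroid markers 9 were lower, with a median of -0.074. The median was -0.03 without replicate 2 at 0.75 (8 lower), -0.006 under array weights (7 lower) and 0.039 by the deposited labels. Among the 6 markers that were not dim, 3 were lower and 3 higher (median -0.032). The list's mean level per array ran from 6.39 to 6.53 at dose 0 and from 6.23 to 6.43 at 0.75. Alas2, the red cell enzyme that starts haem synthesis, had -0.15 (SE 0.09), and 7 of the 13 markers were dim. Their part in the Rhd value was not tested. In bulk RNA, fewer cells of a type and less RNA per cell cannot be told apart.

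The other 6 dim genes of the 20 all read lower at 0.75. The olfactory receptors Olfr466 and Olfr1289 had -0.35 (SE 0.10) and -0.24 (SE 0.08), the keratin-associated Krtap31-2 -0.37 (SE 0.12), Glipr1l1 -0.27 (SE 0.09), and Acbd7 -0.22 (SE 0.07). Replicate 2 at 0.75 was the lowest array in Olfr466 (4.23). Ppp1r17, a phosphatase inhibitor of Purkinje cells, had -0.21 (SE 0.07). Its 5 controls ran from 5.50 to 5.68 and its 5 treated arrays from 5.29 to 5.53, so treated replicates 1 (5.53) and 3 (5.51) lay above the lowest control.

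**Figure D2:**
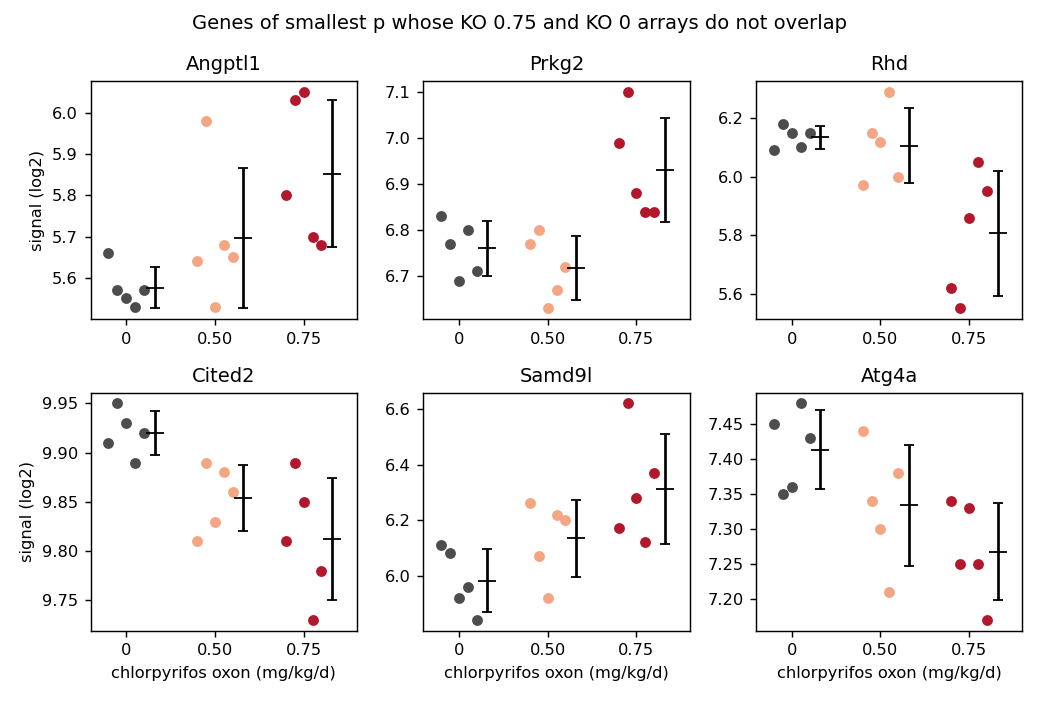
The log2 signal of 6 genes (vertical axes, which differ between panels and do not start at 0) is plotted for each KO array by CPO dose in mg/kg/d (horizontal axis), with a bar for the mean ± SD of 5 arrays beside the points. The 6 genes were picked from those of smallest p because their arrays at 0.75 do not overlap those at 0. The closest arrays nearly touch, as at 5.66 and 5.68 in Angptl1.

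The synapse list had the largest share of members on 1 side among the pathway lists (89.3% higher). Of its 28 measured members, which encode vesicle proteins, scaffolds and glutamate receptors, 25 were higher at 0.75 and the median difference was 0.051. At an unadjusted p under 0.05, 4 were higher and 0 lower, against 1.24% and 1.30% of all transcript clusters, and none passed limma's adjusted test. The list's mean level per array reached 10.15 at dose 0 (mean 10.06) and ran from 10.05 to 10.22 at 0.75 (mean 10.12), so the groups overlapped. Leaving out replicate 2 at 0.75 left 20 of 28 higher and a median of 0.027, and array weights left 22 and 0.022. Taken by the deposited labels, 15 of 28 were higher with a median of 0.004.

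Grin2a, a subunit of the NMDA glutamate receptor whose level rises as the brain matures, was the member furthest apart. It was 7.82, 7.73, 7.82, 7.65 and 7.49 at dose 0 and 8.0, 8.10, 7.84, 7.83 and 7.92 at 0.75. The lowest treated array (7.83) lay just above the highest controls (7.82), and the difference was 0.23 (SE 0.08, interval 0.08 to 0.39). Grm5, a metabotropic glutamate receptor, was 11.32, 11.29, 11.24, 11.29 and 11.10 at dose 0 and 11.34, 11.47, 11.30, 11.27 and 11.39 at 0.75, with overlap (difference 0.11, SE 0.04). Pclo, a scaffold of the presynaptic active zone, differed by 0.10 (SE 0.05), Shank1, a postsynaptic scaffold, by 0.10 (SE 0.07), and Camk2b, a calcium-dependent kinase, by 0.08 (SE 0.04). Camk2b is named after its value was seen, as the last of the 4 members at an unadjusted p under 0.05.

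**Figure D3:**
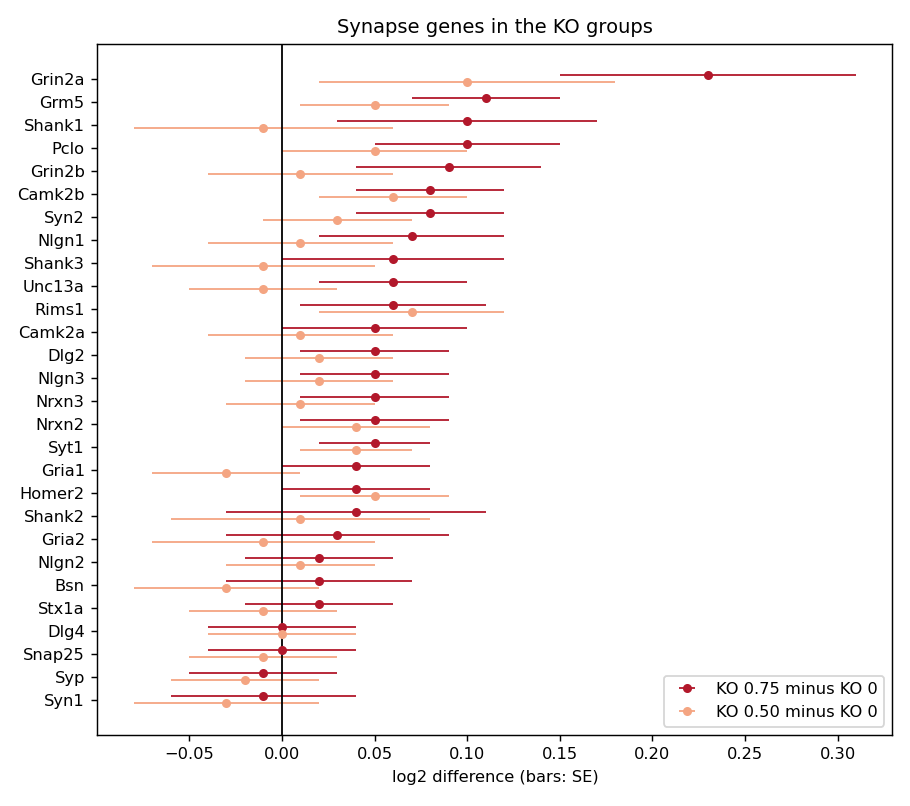
The log2 difference of each of the 28 synapse genes (horizontal axis, points with bars of ± SE) is plotted for KO at 0.75 against 0 and for KO at 0.50 against 0, which share the controls at dose 0. At 0.75, 25 of 28 lie above 0 with a median of 0.051, and at 0.50 the median is 0.011.

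Genes that rise within minutes of neuronal activity were split. Of 19 immediate early genes 7 were higher and 12 lower, around a median of -0.029, which became 0.009 (10 higher) without replicate 5 at dose 0. At an unadjusted p under 0.05, 2 were higher and 2 lower, against 1.24% and 1.30% over all transcript clusters. Npas4, a transcription factor induced by calcium entry, was 7.0, 6.91, 6.86, 6.89 and 6.88 at dose 0 and 7.05, 7.37, 7.02, 6.97 and 7.08 at 0.75. A single treated array, replicate 4, lay among the controls, and replicate 2 was far above the rest (difference 0.19, SE 0.07, and 0.12 without it). Dusp1, a phosphatase that ends kinase signals, was 9.07, 9.41, 9.48, 9.45 and 9.44 at dose 0 and 8.98, 9.36, 9.20, 9.16 and 9.18 at 0.75. Without the low control, replicate 1, the groups would not overlap, and the difference was -0.20 (SE 0.08). Homer1, whose short form is induced at synapses, had 0.12 (SE 0.05), and Btg2, which restrains division, had -0.15 (SE 0.06).

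Genes of growth and wiring had medians on opposite sides of 0. Of 34 axon guidance genes 25 were higher (median 0.026), among them Plxnd1, a semaphorin receptor, at 0.10 (SE 0.06) and Epha7, an ephrin receptor, at 0.10 (SE 0.05). Robo3, a receptor at the midline that was dim, had -0.12 (SE 0.08), or -0.02 without replicate 2 at 0.75. Without that replicate the list had 15 of 34 higher and a median of -0.010, and array weights gave 15 and -0.003, so its side was not kept. Of 27 cell cycle genes 19 were lower (median -0.046), 0 at an unadjusted p under 0.05 either way, with Cdk1, the kinase of mitosis, at -0.12 (SE 0.06) and Tyms, which makes thymidylate, at -0.09 (SE 0.06). Without that replicate 24 of 27 were lower (median -0.056), and without single other arrays the median ran from -0.072 to -0.019.

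Stress and housekeeping lists lay close to all genes. The medians were -0.004 for 18 antioxidant genes, 0.017 for 13 heat shock genes and 0.021 for 24 genes of unfolded protein and amino acid stress. They were -0.015 for 42 genes of oxidative phosphorylation, -0.013 for 36 ribosomal protein genes and -0.004 for 16 of cholesterol synthesis. Without single arrays these 6 medians ran from -0.043 to 0.033, on both sides of 0 in 4 of the lists. The unfolded protein list turned without replicate 2 at 0.75 (6 of 24 higher, median -0.007), without replicate 5 at dose 0 (median -0.002) and under array weights (median -0.009). Each of these lists had at most 1 member at an unadjusted p under 0.05, against 2.55% over all transcript clusters. Among 18 genes of thyroid hormone and retinoid signalling, Dio2, which makes the active thyroid hormone, was 7.46, 7.46, 7.53, 7.56 and 7.39 at dose 0 and 7.61, 7.81, 7.50, 7.51 and 7.76 at 0.75. Treated replicates 3 and 4 lay among the controls, and the difference was 0.16 (SE 0.06). Among 18 genes of serotonin and catecholamine neurons, 9 were higher and 9 lower (median 0.00), with Htr2a, a serotonin receptor, at 0.10 (SE 0.04) and Dbh, which makes noradrenaline and was dim, at -0.16 (SE 0.08).

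Markers of brain cell types were present, as the labelled tissue has them, and their medians lay close to 0. All 16 measured markers of cortical neurons, all 25 of radial glia and astrocytes and all 28 synapse genes were above the dim level. Median differences were -0.009 for cortical neurons, -0.007 for 16 markers of interneurons, 0.026 for 12 of striatum, 0.008 for radial glia and astrocytes, 0.005 for 15 of the oligodendrocyte lineage and -0.008 for 19 of microglia. Without single arrays the median turned sign in 5 of these lists, all but cortical neurons, as in striatum at -0.023 without replicate 1 at dose 0. In these 6 lists 2 genes reached an unadjusted p under 0.05, both lower, against 1.30% lower over all transcript clusters. They were Cldn11, a tight junction protein of myelin, at -0.13 (SE 0.05) and Tmem119, a surface protein of microglia, at -0.13 (SE 0.07).

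Markers of tissue beside the brain, or of regions that a dissection may take in part, were mostly lower in 5 lists. These lists were singled out after their values were seen, and of all 19938 genes 10880 were lower. In pituitary 12 of 14 were lower (median -0.086), in hypothalamus 16 of 19 (median -0.05), in eye and nasal epithelium 14 of 18 (median -0.081), in skeletal muscle 20 of 28 (median -0.049) and in meninges and fibroblasts 14 of 17 (median -0.033). None of these 5 lists had a member past limma's adjusted test, and in them only Dct, a pigment cell enzyme, reached an unadjusted p under 0.05, at -0.20 (SE 0.09), against 1.30% lower over all transcript clusters. Other such lists were more evenly split. Lower were 9 of 16 in bone and cartilage (median -0.015), 8 of 14 in choroid plexus (-0.008), 11 of 20 in hindbrain and spinal cord (-0.021) and 9 of 14 in cerebellum (-0.011). In ependyma and cilia 11 of 18 were higher (median 0.03). Gh, growth hormone of the pituitary, was 10.43, 7.0, 10.21, 10.18 and 7.41 at dose 0 and 6.88, 8.12, 9.22, 9.47 and 9.86 at 0.75. Its spread within each dose was far larger than the difference of -0.34 (SE 0.89), which ran from -0.85 to 0.12 without single arrays.

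The side was not kept in every list. Under array weights skeletal muscle had 16 of 28 higher (median 0.017), eye and nasal epithelium 11 of 18 (median 0.013) and pituitary 7 of 14 (median -0.006), while hypothalamus (-0.029) and meninges and fibroblasts (-0.061) stayed lower. Without replicate 2 at 0.75 the medians were -0.033 in pituitary, -0.038 in hypothalamus, -0.013 in eye and nasal epithelium, -0.007 in skeletal muscle and -0.066 in meninges and fibroblasts. Leaving out dim transcript clusters left 10 of 17 lower in skeletal muscle (median -0.013) and 6 of 9 in eye and nasal epithelium (median -0.041). It left 8 of 8 lower in pituitary (median -0.114) and 14 of 16 in hypothalamus (median -0.067), and meninges and fibroblasts were unchanged. Of all genes, 7164 of 14184 were lower in that setting, and 10880 of 19938 with the dim ones. The mean level per array overlapped between doses in all 5 lists, for example from 6.28 to 6.71 at dose 0 and from 6.23 to 6.63 at 0.75 in pituitary. Their part in the differences of other genes was not tested.

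**Figure D4:**
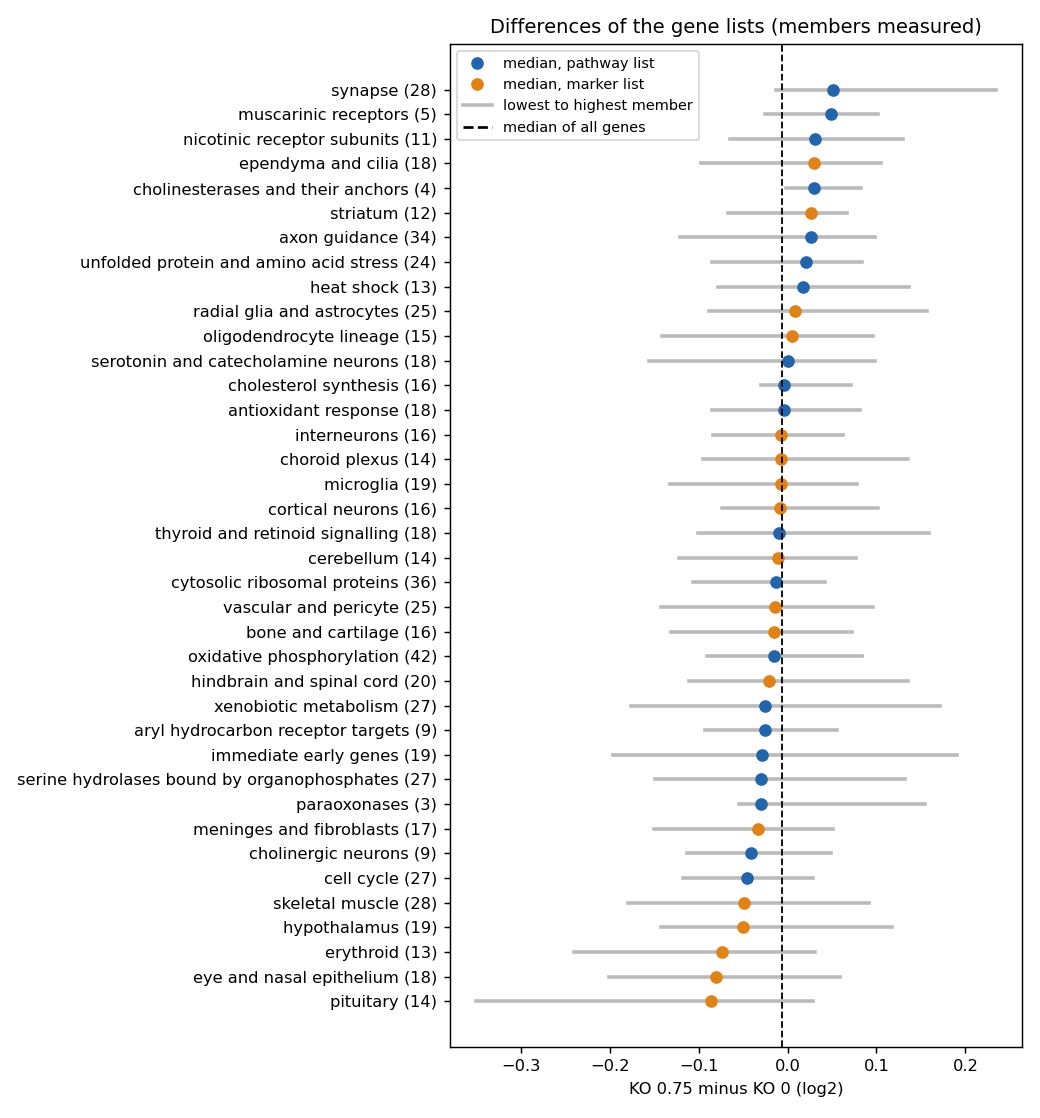
The median log2 difference of each gene list except the sex-linked one is plotted (points, number of measured members in brackets). A line runs from the lowest to the highest member, and a dashed line marks the median of all genes, -0.006. The synapse list lies furthest to the right, at 0.051, and the pituitary list furthest to the left, at -0.086.

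The lower KO dose gave no call either. KO at 0.50 against the same 5 controls gave 0 called transcript clusters by limma (smallest adjusted p 1) and 341 (1.57%) at an unadjusted p under 0.05, 190 higher (0.872%) and 151 lower (0.693%). Without single arrays the unadjusted count ran from 286 to 747, against 295 to 849 at 0.75. If no gene differed, 1089 would be so on average, and no order of the doses is read from these counts. Xist was 5.292 on replicate 1 at 0.50 and from 11.109 to 11.835 on the other arrays of that dose. Its part in the values was not tested. Because the doses share their controls, the values are set side by side and nothing is read from their likeness. Mfap2 had -0.12 at 0.50 and -0.15 at 0.75, Trim30a 0.20 and 0.26, Acbd7 -0.18 and -0.22, and Ppp1r17 -0.27 and -0.21. Prkg2 had -0.04 at 0.50 and 0.17 at 0.75, and Rhd -0.03 and -0.33. The synapse list had medians of 0.011 and 0.051, and the cell cycle list -0.016 and -0.046.

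Set against each other, the doses of 0.75 and 0.50 also gave 0 calls, with a smallest adjusted p of 0.506 (limma) and 535 (2.46%) at an unadjusted p under 0.05, 186 higher (0.854%) and 349 lower (1.60%). The smallest p was that of Vmn2r122, a vomeronasal receptor gene that was dim, at -0.22. Prkg2 followed at 0.21 (SE 0.05), where its 5 arrays at 0.50 ran from 6.63 to 6.80 and its 5 arrays at 0.75 from 6.84 to 7.10.

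The other genotypes were given the same dose of 0.75, and the difference of their response from that of KO was tested directly. Against the WT response limma called 0 transcript clusters, with a smallest adjusted p of 0.86 and 1171 (5.37%) at an unadjusted p under 0.05, 500 higher (2.29%) and 671 lower (3.08%). Against the mean response of WT, Q-tg and R-tg it called 0, with a smallest adjusted p of 1 and 998 (4.58%) at an unadjusted p under 0.05, 381 higher (1.75%) and 617 lower (2.83%). No gene's response to CPO was therefore shown to differ between KO and the other genotypes in this fit.

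The values of the named genes in the other genotypes lay on both sides of 0. Trpc5 had 0.17 in KO and -0.09 in WT, -0.03 in Q-tg and 0.00 in R-tg (SE 0.05 in each). Cited2 had -0.11 in KO and 0.06 in WT, -0.02 in Q-tg and -0.01 in R-tg (SE 0.03 in each). Prkg2 had 0.17 in KO and 0.12 in WT, 0.00 in Q-tg and -0.04 in R-tg (SE 0.05 in each). These genes were chosen for their difference in KO, and that choice favours a larger size in KO. The synapse list, also singled out for KO, had medians of -0.035 in WT, -0.008 in Q-tg and -0.004 in R-tg, and the cell cycle list 0.079, 0.004 and 0.008.

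**Figure D5:**
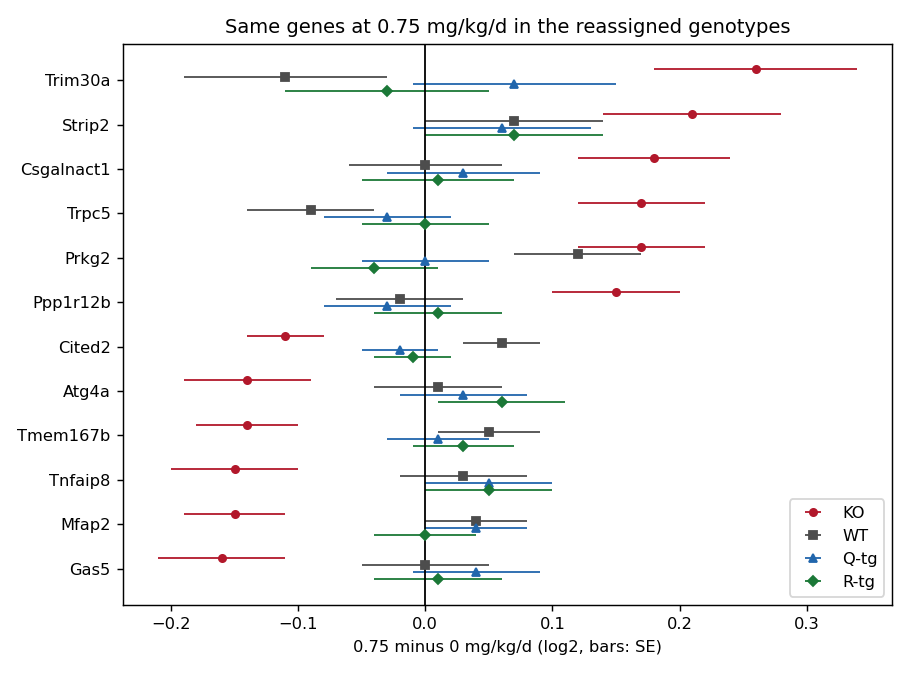
The log2 difference of 12 genes at 0.75 against 0 mg/kg/d (horizontal axis, points with bars of ± SE) is plotted for the reassigned KO, WT, Q-tg and R-tg groups, each against its own controls. The genes are the 6 of smallest p in each direction above the dim level in KO, which puts the KO points furthest from 0.

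The 5 genes of smallest p in the test against WT were Psmd6, a proteasome subunit, at -0.27, Kpna2, a nuclear import factor, at -0.34, Klra6, a receptor of natural killer cells that was dim, at 0.45, Ier3, a stress-induced regulator of survival, at -0.35 and Nudt10, a phosphate hydrolase, at -0.35. In the test against the mean of the other genotypes they were Mfap2 at -0.18, Klra6 at 0.34, Edn1, the vasoconstrictor endothelin, at -0.33, Sh3rf3 at 0.18 and Tmem167b at -0.17. These are differences of log2 differences, and none passed limma's adjusted test. Each value against WT holds the response of both genotypes. In KO and in WT these were -0.08 and 0.19 for Psmd6, -0.10 and 0.25 for Kpna2 and 0.21 and -0.24 for Klra6. For Ier3 and for Nudt10 they were -0.15 in KO and 0.20 in WT.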

How the data were processed

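The deposited values are log2 signals, summarised by the authors with RMA in the R package oligo (R 2.15.1), per the submitters' processing notes, and were not normalized again. Of 28858 transcript clusters on 60 arrays, 21789 had exactly 1 symbol in GEO's platform annotation (1621 had several, 5448 none), and these, which name 19938 genes, were tested. In the GRCm38.p6 gene table, used for names alone, 21698 were found. The genome build behind the probe annotation is not given in the sources used here, and no coordinate is printed.

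Samples were numbered 1 to 60 by deposited group in text order and by replicate, the numbers were sorted as text with the mark _ appended, and the sorted numbers' labels were given to the value columns in order. This order is inferred, and the deposited order was run as an alternative.

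Comparisons used limma 3.58.1 (R 4.3.3), in 1 model with 12 groups on all 60 arrays, with 2-sided tests and Benjamini-Hochberg adjustment over 21789 transcript clusters (threshold 0.05). Dim means a mean signal under 6.54, which 95% of 1035 olfactory receptor transcript clusters did not exceed. Above it were 15611. Single array measures were compared by exact permutation tests. The number of arrays limits the precision.

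The comparison and the 39 gene lists (782 entries, 715 measured) were chosen with earlier results of these data known. Named genes were Pon1, Pon2, Pon3, Ache and Bche, the 20 of smallest p as none passed, the 6 of smallest p in each direction above the dim level, 5 in each other contrast and the 4 list members of largest absolute difference. Symbols of predicted or small RNA genes were passed over. Lists were described by counts and medians, each gene by its brightest transcript cluster.

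The scripts were tested on simulated data. Alternatives tried were array weights, another variance prior, no dim transcript clusters, all transcript clusters, median centring, quantile normalization, only the contrast's groups, the replicate number as block, the Y-linked mean or the lower quartile as covariate, the deposited labels, and leaving out each array in turn.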

Additional observations from a re-analysis of the deposited data

Results flagged for a closer look

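In groups of 5 arrays, the array furthest from the others was compared with Dixon's limit of 0.71 for the gap over the range, for the named genes in both KO groups. It was past the limit in 3 of 52 cases, and chance gives about 1 in 20. Pon1 on replicate 1 at dose 0 was 4.84, below 5.36 to 5.50 on the other 4 controls. Ache on replicate 5 at dose 0 was 8.63, below 8.83 to 8.87 on the other controls, and without that array the difference of 0.08 was 0.04. Olfr1289 on replicate 2 at 0.75 was 4.34, above 4.13 to 4.17, and without it the difference of -0.24 was -0.28.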

How the results depend on the processing

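The count of 0 called transcript clusters in KO at 0.75 against 0 held under every alternative run, with 1652 at an unadjusted p under 0.05 under array weights, 1002 with the lower quartile of the array as covariate (smallest adjusted p 0.0855, limma, for Rhd) and 882 after quantile normalization. With array weights, limma called 1 transcript cluster for KO 0.75 against 0.50 (Vmn2r122, lower, adjusted p 0.0493), 2 for the KO against the WT response (1 higher, 1 lower, smallest adjusted p 0.0405) and 18 for KO against the mean of the other genotypes (2 higher, 16 lower, smallest adjusted p 0.0375), and the cause was not tested. Leaving out each array in turn gave 0 to 0 calls in all 5 contrasts, with 295 to 849 at an unadjusted p under 0.05 in KO at 0.75 against 0. With the replicate number as a block, 0 were called in each contrast, and 561 were at an unadjusted p under 0.05. Whether the numbers pair the samples was not settled. Deviations from the group means correlated at 0.257, 0.33, -0.08, -0.106 and 0.232 between same-numbered arrays at 0.75 and 0. Of the 5 arrays at 0.75, 3 correlated best with the control of their own number.

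Grouped by the deposited labels, limma called 0 with 631 at an unadjusted p under 0.05, and 5 named genes turned sign, to -0.053 for Angptl1, 0.014 for Tmem167b, -0.005 for Samd9l, 0.065 for Ppp1r17 and -0.043 for Csgalnact1. Under the other alternatives 491 of 491 named values kept their side of the threshold, and 1 turned sign, Pon3 at 0.005 without replicate 4 at 0.75.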
